A study of Rickenella mellea with 14 samples.

Results

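The comparison of cultured vegetative mycelium with field-collected primordia of the mushroom Rickenella mellea used 6 of the 14 libraries of the series, chosen by their labels. Mycelium (n = 3, replicates 1 to 3) of strain SZMC22713 was grown on Fries agar. Primordia (n = 3) were collected in the field and carry the same strain label. Replicate 2 is a stage 1 primordium, about 1 mm tall and without a visible cap initial, and replicates 1 and 3 are stage 2 primordia, 2 to 3 mm tall with a small cap initial. The labels name biological replicates but give no number of individuals or cultures, and p-values therefore cover the variation among these samples, part of which may be technical. All mycelium libraries ran on 1 flow cell and all primordia on another, so in every result that follows the stage, the place of growth and the sequencing run cannot be told apart. The other 8 libraries, from young fruiting bodies and from caps and stipes of mature fruiting bodies, entered the fit to estimate the spread between replicates. They also took part in the low-count filter that set which genes were tested, and 74 tested genes had no read in any of the 6 libraries.

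Vegetative mycelium is the feeding body of a mushroom-forming fungus, a network of hyphae that grows through its substrate and takes up nutrients. A primordium is the compact hyphal aggregate in which the tissues of the later fruiting body begin to form. In other mushrooms this transition is known to involve cell wall remodelling, surface proteins such as hydrophobins and regulators of development. The files give gene models of Rickenella mellea by number only, so no function is assigned to any model here and the labelled tissues were not checked against marker genes. The RNA came from whole tissue, so fewer cells of a type and less RNA per cell cannot be told apart.

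The 6 libraries held 13563533 to 18419411 reads over 17139 gene models. No read was found in any of the 6 libraries for 1134 models, and 12006 had reads in all of them. Spearman correlations across genes were 0.922 to 0.985 between mycelium libraries, 0.910 to 0.924 between primordium libraries and 0.735 to 0.802 between the groups. Levels of 1 gene are given as CPM, the deposited read counts per unit of library size, after TMM scaling, a correction that lines up the typical gene between libraries. Levels of different genes are compared as RPKM, which also divides by gene length.

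Mycelium and primordium libraries differed in which genes held most of the reads. Of 15559 genes tested, 6813 (43.8%) passed the threshold, which was an edgeR adjusted p under 0.05 together with a fitted change of 2-fold or more. Of these, 3135 (20.1% of the genes tested) rose in primordium and 3678 (23.6%) fell. Risen genes held 21.5%, 20.4% and 19.8% of all reads in mycelium replicates 1 to 3, and 72.4%, 75.4% and 63.0% in primordium replicates 1 to 3. Fallen genes held 36.5%, 36.7% and 37.6% in mycelium and 3.62%, 3.03% and 5.80% in primordium. Genes that were not called held 42.5% ± 0.442 in mycelium and 25.4% ± 5.18 in primordium (SD, n = 3 in each group). These shares are the plain percent of a library's reads and use no scaling, but the same reads chose the classes, so they describe the calls and do not test them.

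**Figure D1:**
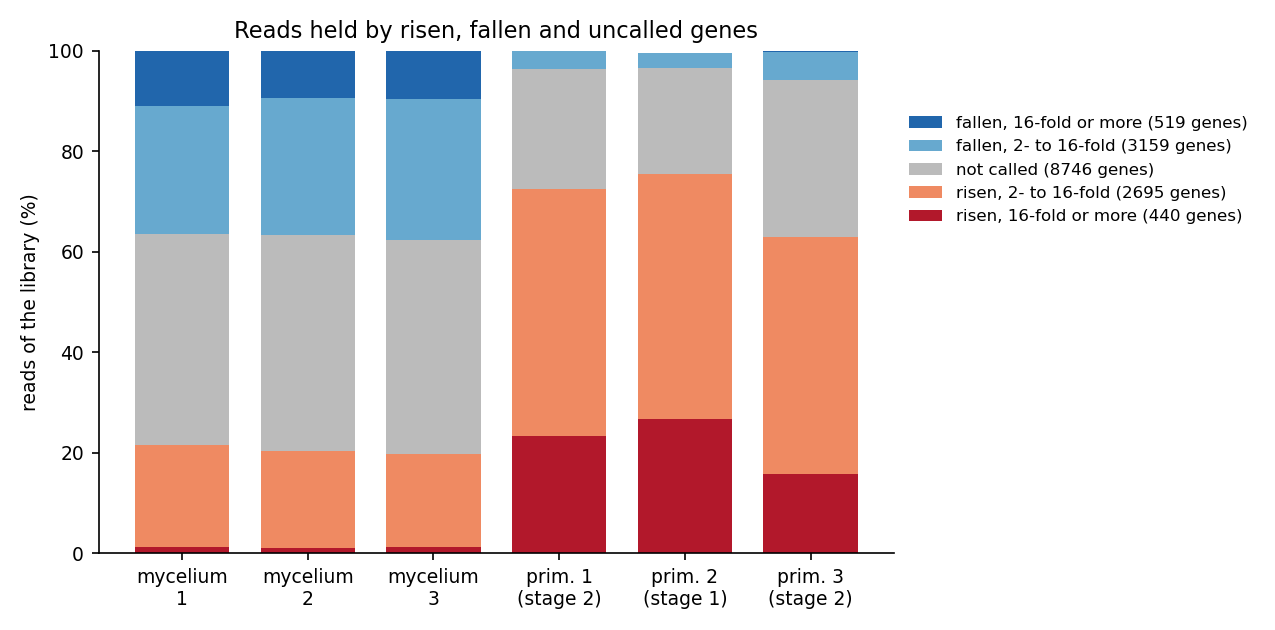
Percent of each library's reads (vertical axis) held by genes that rose, fell or were not called, for 3 mycelium and 3 primordium libraries (horizontal axis). Risen genes make up 19.8% to 21.5% of each mycelium bar and 63.0% to 75.4% of each primordium bar, and fallen genes shrink to at most 5.80% in primordium.

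Reads were more concentrated in primordium. The 100 most abundant gene models of each library held 22.3%, 19.9% and 20.4% of its reads in mycelium replicates 1 to 3. In primordium replicates 1 to 3 they held 34.4%, 34.4% and 26.9%. The groups did not overlap. The two-sided exact permutation test gave p = 0.1, below which 3 against 3 libraries cannot go. The 1000 most abundant models held 53.8% ± 1.77 in mycelium and 68.6% ± 4.16 in primordium (SD, n = 3 in each group).

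Fewer gene models were detected in primordium. At a common depth of 13563533 reads, the size of the smallest library, the number expected to keep a read was computed for each library. Mycelium replicates 1 to 3 had 14899, 15100 and 14987 models with a read. Primordium replicates 1 to 3 had 13455, 13637 and 13883, and again the groups did not overlap (exact permutation p = 0.1, two-sided, the smallest possible). The gap was wider among well-covered models, with 10040 ± 405 in mycelium and 7863 ± 412 in primordium having at least 100 reads at this depth (SD, n = 3 in each group). The common depth equalises total reads only, and the most abundant models took a larger share of them in primordium. How much of the gap comes with that share was not tested.

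The balance of risen and fallen genes depended on scaling. Scaled by library size alone, 1642 genes rose and 6286 fell, and the median log2 change of all tested genes went from -0.15 to -1.02. With DESeq2 size factors 2978 rose and 3853 fell. The 1642 genes that rose under all 3 scalings were 10.6% of the genes tested. They held 10.5% ± 0.439 of the reads in mycelium and 54.9% ± 7.60 in primordium (SD, n = 3 in each group). These 1642 are all the genes that rose with library size alone. All 3678 fallen genes were called as fallen under these 3 scalings. Both alternative scalings moved the median log2 change downward (-0.21 with DESeq2 size factors), so the fallen calls were nearly bound to stay and were not tested by this.

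Large changes were found in both directions. No read was found in any primordium library for 509 of the fallen genes, and none in any mycelium library for 115 of the risen genes. For these the fitted change depends on a small constant added by the model, so the fold was computed instead against a floor of 3 reads per library. With these bounds 440 genes rose (2.83% of the genes tested) and 519 fell (3.34%) at least 16-fold. The median log2 change was 2.11 over risen and -2.48 over fallen genes by the fitted values, and 2.09 and -2.15 with the bounds. For 159 of the fallen genes the bound was under 2-fold, so the reads do not show a 2-fold change on their own.

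Most called genes had groups that did not overlap, at 6388 of 6813, against 55.2% of all genes tested and 2198 of the 8746 not called. The same values made the calls, so this describes them and does not test them. Among the genes tested 24.6% had every primordium library above every mycelium library and 30.6% the reverse. On log2(CPM + 0.5), the nearest libraries lay at least 2-fold apart for 1732 genes higher in primordium (11.1%) and 1874 higher in mycelium (12%). They lay at least 4-fold apart for 676 genes higher in primordium (4.34%) and 603 higher in mycelium (3.88%). At least 16-fold, the counts were 104 (0.668%) and 77 (0.495%).

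**Figure D2:**
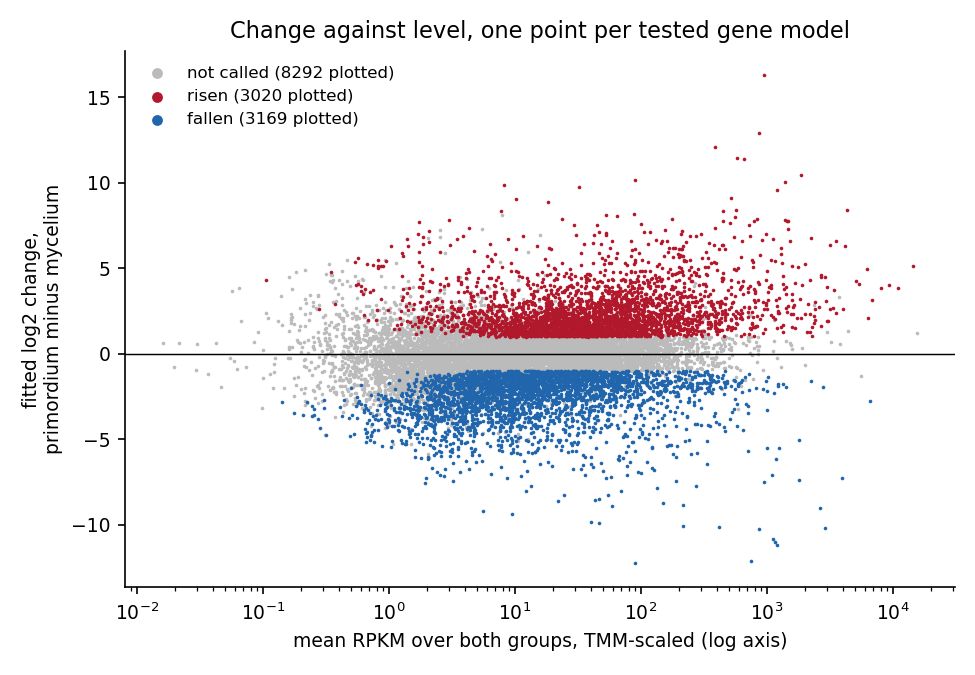
Fitted log2 change from mycelium to primordium (vertical axis) against mean RPKM over both groups on a log axis (horizontal axis), with 1 point per tested gene model. The 1078 models without a read in a whole group are left out, and risen genes are denser at the right of the plot than fallen genes are.

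Abundant genes rose more often than scarce ones. When tested genes were put into 5 equal bins by mean RPKM over both groups, 41.7% rose and 19.4% fell in the highest bin. In the lowest bin, 5.30% rose and 23.5% fell. The median log2 change was 0.68 in the highest bin and -0.89 in the lowest. The level includes the primordium libraries themselves, so this is a description of where the calls lie.

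The most abundant transcripts were exchanged in part. Of the 100 models with the highest mean RPKM in mycelium, 56 fell, 20 rose and 24 were not called. Of the 100 with the highest mean RPKM in primordium, 91 rose, 0 fell and 9 were not called, and 27 models stood in both lists. The primordium list took 31.3%, 30.02% and 23.6% of the reads in primordium replicates 1 to 3 and 8.43%, 7.06% and 7.25% in mycelium. Over all genes tested, 20.1% rose and 23.6% fell. Each list was picked on the libraries of its own group, which favours genes that are high there.

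The abundant genes that rose at least 16-fold were led by gene model 791159, which had the highest mean RPKM of primordium, at 27942 ± 17466 (SD, n = 3). It stood at 595, 546 and 492 CPM in mycelium replicates 1 to 3 and at 31900, 18576 and 7699 CPM in primordium replicates 1 to 3. All primordium libraries lay above all mycelium libraries, and the stage 2 libraries were the highest and the lowest of the 3 primordia. The log2 change was 5.16 ± 0.70 (SE; edgeR adjusted p = 9.08e-05), and 4.48 without primordium replicate 1. In later stages it averaged 2455 ± 1827 CPM in young fruiting bodies (n = 3), 366 ± 86.5 in caps (n = 3) and 8517 ± 3229 in stipes (n = 2).

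Gene model 779710 held the most CPM of any of the 6 risen models in the stage 1 library. Its levels were 857, 605 and 672 CPM in mycelium and 21628, 30371 and 13119 CPM in primordium replicates 1 to 3. The log2 change was 4.93 ± 0.49 (SE; edgeR adjusted p = 1.16e-05), and the nearest libraries of the groups lay 3.94 apart on log2(CPM + 0.5). It averaged 3098 ± 1154 CPM in young fruiting bodies, 1386 ± 80.7 in caps and 3239 ± 873 in stipes.

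The steepest rise of these models belonged to gene model 709877, which was low in mycelium for this group, at 44.4, 8.03 and 8.27 CPM. In primordium replicates 1 to 3 it stood at 12470, 5982 and 2439 CPM. The log2 change was 8.43 ± 1.30 (SE; edgeR adjusted p = 0.000236), and 9.74 without mycelium replicate 1 and 7.59 without primordium replicate 1. Mycelium replicate 1 was the highest mycelium, and the groups stayed far apart. The model was lower later than in primordium, with means still above its mycelium mean of 20.2 CPM. It stood at 57.8, 562 and 44.3 CPM in young fruiting body replicates 1 to 3 (222 ± 295). Caps averaged 66.9 ± 9.35 CPM and stipes 76.9 ± 9.82.

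The other 3 risen models spread widely between primordia, with stage 2 replicate 1 highest and stage 2 replicate 3 lowest in each. Gene model 798374 went from 244 to 509 CPM in mycelium to 13184, 3757 and 2242 CPM in primordium replicates 1 to 3 (edgeR adjusted p = 0.000843). Gene model 787849 went from 202 to 648 CPM in mycelium to 11661, 7795 and 3794 CPM (edgeR adjusted p = 0.00238). Gene model 791214 went from 233 to 420 CPM in mycelium to 12855, 3063 and 974 CPM (edgeR adjusted p = 0.00738). None of them overlapped between the groups, which their choice for a large called change favours. Without primordium replicate 1 the log2 change went from 4.05 to 2.85 for model 798374 and from 4.24 to 2.65 for model 791214, and both stayed called. Scaled by library size alone, the changes were 3.08 for model 798374, 3.19 for model 787849 and 3.22 for model 791214, all called but under 16-fold.

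**Figure D3:**
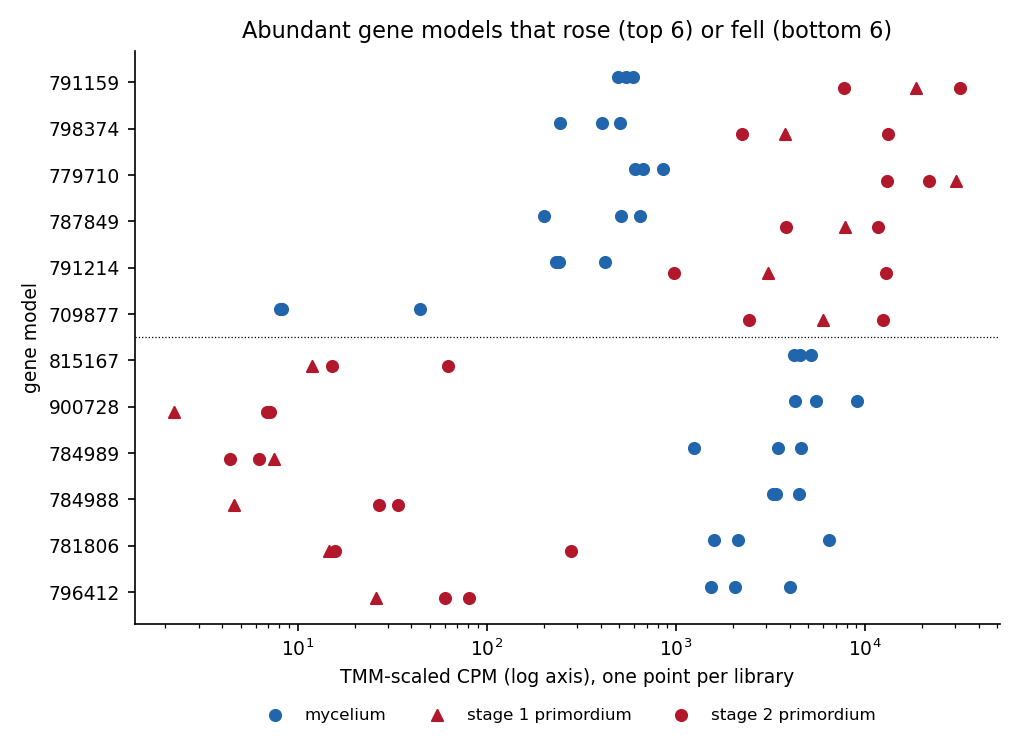
TMM-scaled CPM on a log axis (horizontal axis) in each of the 6 libraries for the 6 abundant models that rose and the 6 that fell at least 16-fold (vertical axis, by model number). Circles and triangles mark single libraries, triangles the stage 1 primordium. No model has overlapping groups, against 55.2% of all genes tested, but the models were chosen for large called changes in these libraries, which favours this.

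Among abundant genes that fell, gene model 900728 dropped the furthest. It stood at 9037, 5475 and 4263 CPM in mycelium replicates 1 to 3 and at 6.86, 2.22 and 7.12 CPM in primordium replicates 1 to 3. The stage 1 library was the lowest, and the nearest libraries of the groups lay 9.13 apart on log2(CPM + 0.5). The fitted log2 change was -10.18 ± 0.79 (SE; edgeR adjusted p = 2.83e-06). It stayed low in young fruiting bodies (14.8 ± 8.14 CPM), caps (5.15 ± 0.983) and stipes (15.4 ± 10.3).

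Gene model 815167 was the third most abundant of mycelium by RPKM, at 7875 ± 818 (SD, n = 3). Its levels were 4533, 4206 and 5153 CPM in mycelium and 15.3, 11.96 and 62.7 CPM in primordium replicates 1 to 3. The log2 change was -7.27 ± 0.70 (SE; edgeR adjusted p = 1.02e-05), and -8.41 without primordium replicate 3, the highest of the primordia. Its 3 mycelium libraries lay close together, and in later stages its mean was 18.6 to 24.1 CPM.

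Gene models 784989 and 784988 fell from at least 1239 CPM to at most 34.0 CPM. Gene model 784989 stood at 4600, 1239 and 3469 CPM in mycelium and at 4.41, 7.52 and 6.23 CPM in primordium replicates 1 to 3. It changed by -9.00 ± 0.67 (log2, SE; edgeR adjusted p = 2.62e-06). Gene model 784988 stood at 4467, 3389 and 3257 CPM and at 34.0, 4.61 and 27.1 CPM, and changed by -7.40 ± 0.86 (log2, SE; edgeR adjusted p = 3.16e-05). For the first the stage 1 library was the highest primordium, and for the second it was the lowest.

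The last pair of abundant fallen models differed in spread, with the largest SE of the 6 for model 781806 and the smallest for model 796412. Gene model 781806 stood at 6451, 2121 and 1594 CPM in mycelium replicates 1 to 3 and at 15.9, 14.6 and 278 CPM in primordium replicates 1 to 3. Its log2 change of -5.04 ± 1.14 (SE; edgeR adjusted p = 0.00314) was -7.80 without primordium replicate 3 and -4.18 without mycelium replicate 1. Gene model 796412 went from 2048, 1532 and 3990 CPM in mycelium to 60.4, 26.0 and 80.2 CPM in primordium, which is -5.51 ± 0.65 (log2, SE; edgeR adjusted p = 3.46e-05). Both were low in mature tissue, model 781806 at 1.29 ± 0.419 CPM in caps and 0.592 ± 0.107 in stipes, and model 796412 at 91.0 ± 34.2 and 59.0 ± 16.2.

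The most abundant transcript of mycelium by RPKM fell only in part. Gene model 840947 had 4885, 4493 and 5261 CPM in mycelium and 1137, 476 and 560 CPM in primordium replicates 1 to 3. The log2 change was -2.75 ± 0.44 (SE; edgeR adjusted p = 0.000281), and the groups did not overlap. Gene model 779989 was the second most abundant by RPKM in both groups, at 9394 ± 1774 in mycelium and 21647 ± 9594 in primordium (SD, n = 3 in each). It had 4817, 6650 and 6965 CPM in mycelium and 21388, 10154 and 10928 CPM in primordium, so that its groups did not overlap either. Its log2 change of 1.20 ± 0.54 (SE) was not called by edgeR (adjusted p = 0.0794), while the DESeq2 test (adjusted p = 0.0262) and the fit with the length trend removed called it, and adjusted p ran from 0.0102 to 0.643 over all alternatives.

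The third most abundant model of primordium, gene model 793658, rose. It stood at 687, 482 and 475 CPM in mycelium and at 14315, 5893 and 3043 CPM in primordium replicates 1 to 3. Its log2 change was 3.82 ± 0.56 (SE; edgeR adjusted p = 0.000167) and 2.92 without primordium replicate 1. Stage 2 replicate 1 was again the highest primordium and stage 2 replicate 3 the lowest.

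Some abundant genes were not called. The 3 with the highest mean RPKM among uncalled genes with a log2 change between -0.5 and 0.5 were models 834806, 792459 and 780027. Gene model 792459 had 828, 653 and 567 CPM in mycelium and 1230, 554 and 697 CPM in primordium. Gene model 780027 had 910, 940 and 1333 CPM in mycelium and 1993, 1193 and 1281 CPM in primordium. Gene model 834806 had 875, 501 and 839 CPM in mycelium, and 1323 and 1260 CPM in the stage 2 libraries but 186 CPM in the stage 1 library. In all 3 the groups overlapped. The log2 changes were 0.28 ± 0.52 for model 792459, 0.49 ± 0.38 for model 780027 and 0.32 ± 0.75 for model 834806 (SE; edgeR adjusted p = 0.685, 0.297 and 0.744). Library size alone turned them to -0.63, -0.41 and -0.51, and removing the length trend gave model 780027 a called rise of 1.06 (adjusted p = 0.0247).

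By unscaled CPM, silence in a whole group was found more often in primordium. Of 15559 genes tested, 72 had at least 10 CPM by library total in every mycelium library and under 1 CPM in every primordium library. The reverse held for 11. No read at all in the low group was found for 10 of the former and 2 of the latter. TMM factors were below 1 in primordium and above 1 in mycelium, so these limits ask for a larger scaled difference of the 11 than of the 72. On scaled values, the nearest libraries lay at least 16-fold apart for 104 genes higher in primordium and 77 higher in mycelium. The floor of 3 reads stands at a mean of 0.272 CPM in primordium and 0.168 CPM in mycelium after scaling, and it covers counting error only.

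Gene model 782881 had the highest mean CPM of the 10, at 605, 227 and 174 CPM in mycelium replicates 1 to 3 and no read in primordium, so it was at least 1233-fold lower there, or at least 737-fold without mycelium replicate 1. It came back at low level in young fruiting bodies (6.78 ± 0.961 CPM), caps (10.4 ± 3.26) and stipes (3.35 ± 1.09). Gene model 846877 stood at 479, 61.4 and 88.9 CPM in mycelium and was at least 771-fold lower in primordium, or at least 276-fold without mycelium replicate 1. It had no read in the young fruiting bodies either. Gene model 836223 stood at 137, 21.8 and 31.7 CPM and was at least 233-fold lower, or at least 98.4-fold without mycelium replicate 1. In these 3 models mycelium replicate 1 was the highest library.

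Gene model 101 stood at 52.7, 80.0 and 36.6 CPM in mycelium and was at least 207-fold lower in primordium. It stayed near the floor later, at 0.104 ± 0.036 CPM in young fruiting bodies, 0.190 ± 0.089 in caps and no read in stipes. Gene model 693389 stood at 38.7, 25.2 and 68.6 CPM and was at least 162-fold lower in primordium. The other 5, models 334612, 835168, 845107, 329109 and 789289, lay between 8.25 and 22.8 CPM in every mycelium library. They were at least 42.7-fold to 71.1-fold lower in primordium, and each had reads again in young fruiting bodies, at a mean of 0.904 to 2.82 CPM. All 10 were called as fallen, with edgeR adjusted p from 2.82e-06 to 0.00315, against 23.6% of all genes tested. They were picked on reads of these same libraries, which nearly fixed the call, so it describes them and does not test them.

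Of the 2 models silent in mycelium, gene model 795207 had 76.8, 35.5 and 28.5 CPM in primordium replicates 1 to 3, which is at least 279.5-fold higher (edgeR adjusted p = 2.65e-06). It kept reads in all later libraries, from 8.21 CPM in cap replicate 1 to 37.5 CPM in stipe replicate 1. Gene model 797748 had 39.6, 239.7 and 13 CPM in primordium, with the stage 1 library highest. Only 45.4% of its reads were unique to it, so its level is uncertain. If all its reads are counted, its mean was at least 580.5-fold higher in primordium, or at least 157-fold without the stage 1 library. With shared reads this is not a firm lower bound. Its call (edgeR adjusted p = 0.0434) was lost in 8 of 19 alternatives, among them leaving out any of the 3 mycelia or primordium replicate 1 or 2 (0.0599 to 0.0968), with adjusted p from 1.07e-10 to 0.171 over all of them. It was at 0 reads in some libraries of each later group and at up to 48.5 CPM in others.

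**Figure D4:**
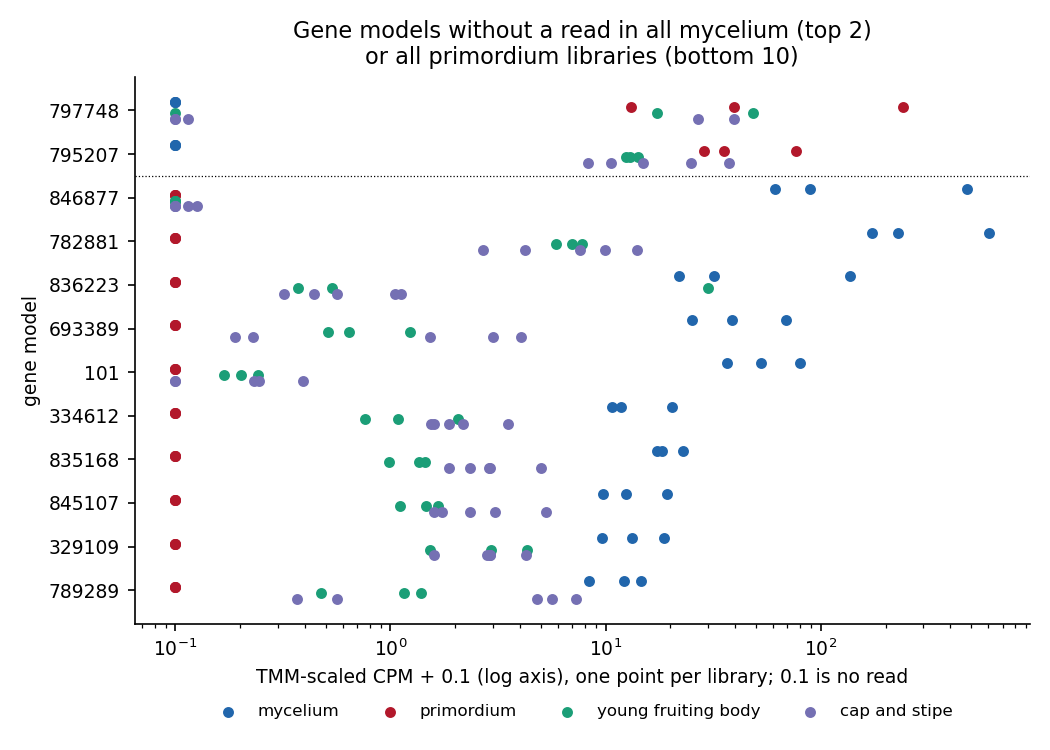
TMM-scaled CPM + 0.1 on a log axis (horizontal axis) in all 14 libraries for the 12 models without a read in one group and at 10 CPM or more, by library total before scaling, in every library of the other (vertical axis, by model number). Points at 0.1 stand for no read and can lie on each other, and 8 of the 10 models silent in primordium have reads in all 8 later libraries.

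Primordium libraries also differed among themselves. Among genes at 10 CPM or more in the library or in both others of its group, 125 lay at least 4-fold above both other primordia in the stage 1 library and 97 at least 4-fold below. For stage 2 replicate 1 these counts were 76 and 39, and for stage 2 replicate 3 they were 144 and 90. At 16-fold the stage 1 library had 41 above and 25 below, stage 2 replicate 1 had 9 and 6, and stage 2 replicate 3 had 25 and 14. With 1 stage 1 library, a difference between stages and one between samples cannot be told apart.

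The models in which the stage 1 library stood highest above the stage 2 libraries were silent in those. Gene model 810232 had 742 CPM in the stage 1 library and no read in the other 5. It also stood at 440 CPM in young fruiting body replicate 3 and at 416 CPM in cap replicate 2, and under 1 CPM in every other later library. Gene model 582902 had 224 CPM in the stage 1 library and none in the other 5, but 0% of its reads were unique. Neither was called (edgeR adjusted p = 0.0951 and 0.107).

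Gene model 886312 had 153 CPM in the stage 1 library, no read in the stage 2 libraries and 0.306, 0.546 and 2.97 CPM in mycelium. It was called as risen (edgeR adjusted p = 0.0496), but the groups overlapped. Without the stage 1 library its log2 change turned from 5.31 to -8.44. A rise was called in 4 of the 18 alternatives that gave an adjusted p (0.00345 to 0.949), and leaving out any 1 mycelium library ended it (0.0624 to 0.136).

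The models in which the stage 1 library stood lowest were 896143, 806013 and 792085. Gene model 896143 had 0.940 CPM in the stage 1 library, 171 and 1177 CPM in stage 2 replicates 1 and 3, and 92.0 to 310 CPM in mycelium, and was not called (edgeR adjusted p = 0.511). Gene model 806013 had 0.598 CPM in the stage 1 library, close to the 0.312 to 0.489 CPM of mycelium, and 229 and 112 CPM in stage 2. It was called as risen (edgeR adjusted p = 0.0166), a call lost in 4 of 18 alternatives, among them without mycelium replicate 2 (0.0564) or 3 (0.0583), with adjusted p from 2.92e-05 to 0.284. Gene model 792085 had no read in the stage 1 library and 55.5 and 39.0 CPM in stage 2, with 6.71% of its reads unique.

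Mycelium replicate 1 stood apart from the other mycelia. It lay at least 4-fold above both for 157 genes and at least 4-fold below both for 221, where replicate 2 had 8 and 7 and replicate 3 had 10 and 5. Gene model 901179 had 179 CPM in replicate 1 and no read in replicates 2 and 3, with 9.21 to 76.7 CPM in primordium. Only 75.7% of its reads were unique to it, so its levels are uncertain. Gene model 844413 had 109 CPM in replicate 1 and no read in the other 2. Gene models 878247 and 805017 went the other way, at 0.184 and 0.734 CPM in replicate 1. Replicates 2 and 3 had 320 and 338 CPM of the first and 492 and 539 CPM of the second. None of these 4 models was called. Without mycelium replicate 1, model 805017 was called as fallen (log2 change -2.48, edgeR adjusted p = 0.00707), and model 901179 as risen from a group then without reads. With replicate 1 left out, 3135 genes rose and 3565 fell, and without that library and the stage 1 primordium together 3035 rose and 3540 fell.

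Calls varied with gene length. Tested genes were put into 5 equal bins by length. In the shortest bin, with a median of 528 bases, 13.2% rose and 26.2% fell. In the longest, with a median of 2501 bases, 32.0% rose and 16.6% fell. The median log2 change was -0.55 in the shortest and 0.41 in the longest bin, a difference of 0.96. Against the mycelium mean this difference was 0.107, -0.100 and -0.006 in mycelium replicates 1 to 3 and 0.608, 0.871 and 0.890 in primordium replicates 1 to 3, without overlap. What sets it was not tested.

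**Figure D5:**
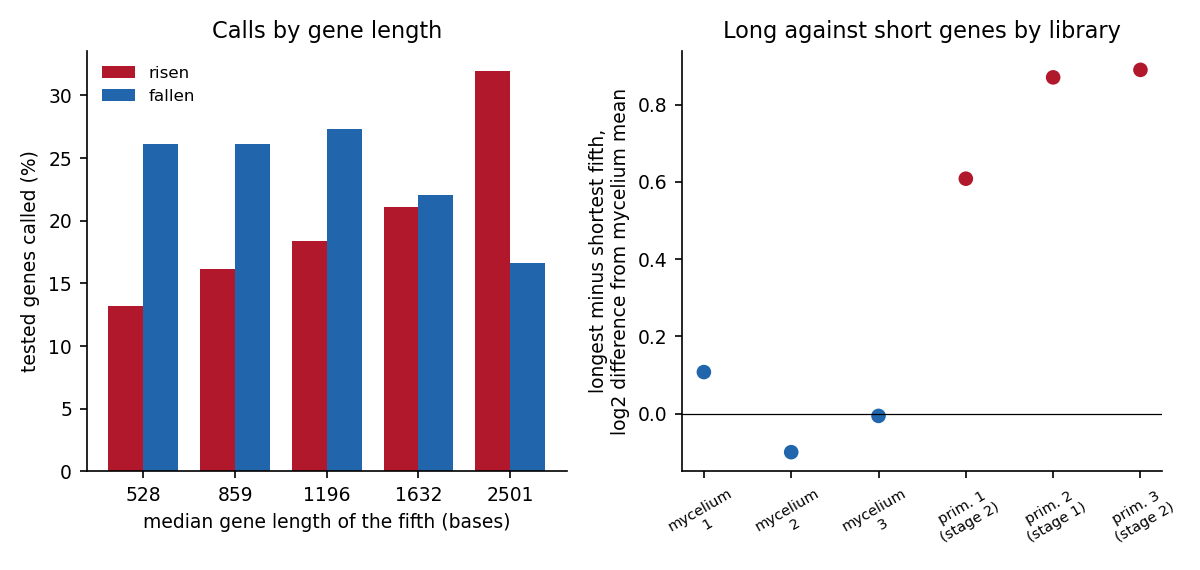
Left, percent of tested genes that rose or fell (vertical axis) in 5 bins of gene length, named by the median length in bases (horizontal axis). Right, the difference between the longest and shortest bin in the median log2 deviation from the mycelium mean (vertical axis) for each library (horizontal axis), where all 3 primordia lie above all 3 mycelia.

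Some strong changes fell on near-identical gene copies. Under 90% of the reads were unique for 494 tested models, of which 34.8% were called, against 43.8% of all tested genes. Gene models 278379 and 582922 are both 1040 bases long, and 0% of their reads were unique. They had nearly the same values, at 53.3, 39.1 and 32.6 CPM and at 52.0, 41.6 and 29.4 CPM in mycelium replicates 1 to 3. In primordium replicates 1 to 3 they had 699, 1435 and 545 CPM and 697, 1405 and 537 CPM, each a log2 change of 4.42 (edgeR adjusted p = 7.7e-05 and 8.01e-05). Without the stage 1 library, which was the highest, the changes were 3.799 and 3.81. How their reads divide between the copies cannot be read from these counts.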

How the data were processed

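The deposited tables give, per the file headers, total and unique read counts for each gene model of the set Ricmel1, with its length. The authors' read counts were not normalized, the deposited RPKM divides total reads by gene length and library total, and the deposited TPM, a per-library share over all models, was not used. The deposited matrix of log2 RPKM values covers 15477 models. Tools listed in the submitters' processing notes are limma 3.18.13, edgeR 3.4.2 and R 3.0.2, with no steps. The mapper and the build were not stated in the sources used here. The labels name a TruSeq v2 kit, which does not mark the strand.

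Total reads of all 14 libraries, with TMM factors of 0.572 to 0.787 in primordia and 1.14 to 1.35 in mycelium, entered 1 quasi-likelihood fit (edgeR 4.0.16, R 4.3.3, 9 residual degrees of freedom). Genes passing filterByExpr were tested and p-values adjusted by Benjamini-Hochberg. The 1580 untested models held at most 0.390% of a library's reads. Each SE was derived from the fitted change and its F statistic. Scripts were tested on simulated data. Alternatives used DESeq2 1.42.0, limma 3.58.1, unique reads, RPKM, other filters, thresholds and scalings, and left-out libraries. The comparison and the rules for naming models were chosen with earlier results of these data known. Named were the most abundant models with a fitted change of at least 16-fold under TMM, a call in the same direction under all 3 scalings and at least 90% unique reads (6 each way), all models without a read in 1 group and at 10 CPM or more by library total in each library of the other, the 3 most abundant of each group, 3 uncalled, those in which the stage 1 library or mycelium replicate 1 stood farthest apart, and the 2 most abundant with under 50% unique reads.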

Additional observations from a re-analysis of the deposited data

Results flagged for a closer look

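Some gene models that did not pass the low-count filter held many reads in a single library. In the stage 1 primordium library, 21 untested models stood at 10 CPM or more while each of the other 13 libraries stayed under 1 CPM. They held 205 to 18091 reads each and 0.384% of the library's reads, 100% of them unique, and 18 had no read in any other library. By the same limits, 5 models stood out in stage 2 primordium replicate 3, with 168 to 511 reads each. Of their reads 76.5% were unique, and 2 of the 5 had no read in any other library. In mycelium replicate 1 it was 1 model, with 206 reads, which had reads in another library too. The source of these reads was not tested.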

How the results depend on the processing

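Of 88 alternative values for the main results, 82 kept direction and stayed within 1.5 times the count, or within 1 SD between replicates for the length difference. Library size alone gave 1642 risen and 6286 fallen genes. Requiring 4-fold gave 3991 calls, 1701 risen and 2290 fallen, fewer by construction. With 1 library left out, calls ran from 5938 to 7105, risen from 2714 to 3220, fallen from 3224 to 3893, and the length difference from 0.85 to 1.16, the last without primordium replicate 1. Removing the length trend gave 3554 risen and 3101 fallen, and the fit of only the 6 libraries 2664 and 2630, so that risen genes outnumbered fallen ones there and not in the fit reported; the cause was not tested. The read share of the 100 most abundant models differed by 9.81 to 13.6 percentage points and detection by -1449 to -1235 models.

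Same-numbered mycelium and primordium libraries did not deviate together (correlations 0.008 to 0.038), so the numbers do not pair them. The replicate block gave 6165 calls, 2866 risen and 3299 fallen.

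For named models that were called, 569 of 596 alternative values kept direction and call. The abundant models named for changes of at least 16-fold had to be called with DESeq2 size factors and with library size alone. Their agreement in those alternatives was therefore fixed in advance. For named models not called, 225 of 234 values stayed uncalled, and 29 of these, in 9 models, changed sign or went to 0. Model 886312 reversed with limma-voom (-0.21), on the deposited matrix (-0.26), and without both mycelium replicate 1 and the stage 1 primordium (-8.84), and ran from -8.44 to 6.88 with 1 library left out. Model 901179 ran from -0.97 to 13.47 with 1 library left out and reached 13.45 without both; where the remaining mycelia have no read of it, its fitted change depends on a constant in the model. Depth limits the silent genes, and their bounds rest on a chosen floor of 3 reads per library.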
